A study of Mus musculus with 9 samples.

Results

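The SR and hnRNP families comprised 31 protein-coding mouse genes, of 47643 genes in the count files. Genes were taken as members when their symbol began with Srsf (11 SR family genes) or Hnrnp (20 hnRNP family genes), and the 2 family symbols that were pseudogenes were left out. RNA had been prepared for 3′ end sequencing from tumor cells that were sorted by reporter color from pancreatic ductal adenocarcinoma (PDAC) of tamoxifen (TAM)-fed mice, and the comparison asks how the families were expressed in cells that grew without Yap. Both groups carried Trp53 frt/+, Pdx-Flp and R26 FSF-CreER/Dual, so that Flp, driven from a pancreatic promoter, recombined the Trp53 allele and switched on EGFP. TAM-activated CreER then exchanged EGFP for tdTomato (Tm), and cells were taken from relapsed nodules. KPF mice carried no floxed Yap and gave GFP+Yap+ cells as the control group (6 libraries), and KPYYF mice were in addition Yap flox/flox and gave Tm+Yap- cells (3 libraries). Genotype, loss of Yap, reporter color and CreER recombination changed together and cannot be told apart, and the age of each mouse is not analysed here. KPF libraries 4504h and 4504s share a mouse number, and the labels do not say that they are separate tumors, so p values measure the spread between these libraries.

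SR proteins carry RNA recognition motifs and a domain rich in arginine and serine, bind enhancer sequences in exons and help the spliceosome to use nearby splice sites. The hnRNP proteins coat nascent transcripts, often oppose the inclusion of exons, and also act in transcript stability, transport and translation. In tumors, the balance between the families is known to shift the isoforms of genes of metabolism, apoptosis and cell adhesion. Libraries of 3′ ends count transcripts per gene and do not show which exons were used.

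Libraries held 8116539 to 9635514 counts on genes. Yap1, the deleted gene, was at 41.8 to 151 CPM (counts scaled to a common library size) in KPF and at 0.712 to 7.12 CPM in KPYYF libraries, with a log2 fold change of -4.79 (SE 0.72, adjusted p = 0.0159 in the quasi-likelihood test of edgeR, adjusted by the Benjamini-Hochberg method). Of the epithelial markers, 6 of 6 had a log2 fold change below 0, with a median of -2.57, and their summed level was 527 to 1573 CPM in KPYYF and 2845 to 9751 CPM in KPF libraries. The summed markers of other cells were at 388 to 2185 CPM in KPYYF and 307 to 4231 CPM in KPF libraries for 6 fibroblast genes, 85.2 to 133 against 97.9 to 1178 CPM for 6 immune genes, 10.2 to 14.8 against 10.8 to 54.3 CPM for 4 endothelial genes, 42.9 to 2930 against 51.1 to 13193 CPM for 4 acinar genes, and 1.32 to 11.0 against 0 to 36.004 CPM for 3 islet genes. The 3 Schwann cell genes were at 0 in every KPYYF library and at up to 6.13 CPM in KPF libraries, and Sox10 was at 0 in all 9. Reads without a unique alignment took 49.2 to 53.4% of KPYYF and 43.8 to 48.5% of KPF libraries. Xist, a sex marker that is high in female cells, was at 3452 to 16108 counts in the KPYYF libraries and in KPF libraries 4435, 4504h and 4504s, but at 71 to 159 counts in the other 3 KPF libraries. The sex of the mice may therefore differ in part between the groups. The part of these differences in the values below was not tested.

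Srsf1 and Hnrnpl were the 2 members with an unadjusted p under 0.05, and their promoters are printed for that reason. The sequences are those of RefSeq in GRCm38.p6 and run from 250 bases before to 50 bases after an annotated start, 300 bases each. Srsf1 lies on the plus strand at chr11:88047123-88047422, and Hnrnpl on the plus strand at chr7:28810640-28810939. Capitals mark GGAATG, the core letters of a TEAD site, since TEAD factors are the DNA-binding partners of Yap.
Srsf1: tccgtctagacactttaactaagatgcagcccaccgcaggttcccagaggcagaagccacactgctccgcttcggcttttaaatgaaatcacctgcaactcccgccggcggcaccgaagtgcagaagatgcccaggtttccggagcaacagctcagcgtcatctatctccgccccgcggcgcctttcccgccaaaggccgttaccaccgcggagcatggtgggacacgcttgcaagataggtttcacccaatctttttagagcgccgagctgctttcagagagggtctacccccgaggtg
Hnrnpl: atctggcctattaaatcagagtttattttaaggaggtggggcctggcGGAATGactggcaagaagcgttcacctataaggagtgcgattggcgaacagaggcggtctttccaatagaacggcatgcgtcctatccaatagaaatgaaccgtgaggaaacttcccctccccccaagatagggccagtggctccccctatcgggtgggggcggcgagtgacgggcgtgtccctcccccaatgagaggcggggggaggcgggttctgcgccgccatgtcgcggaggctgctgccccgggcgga
The Hnrnpl promoter held these letters from position 48 of the window, 203 bases before the start, and Srsf1 held no match to any of the motifs searched. RefSeq promoters were matched for 29 of the 31 members, 41 promoters in all. On either strand, GGAATG was in 2.44% of the member promoters and in 14.7% of all 32851 promoters, and TGANTCA, the letters of an AP-1 site, was in 2.44% and 7.81%. CACGTG, an E-box of the kind that Myc and Max bind, was in 5 member promoters (12.2%), those of Hnrnpa3, Hnrnpd, Hnrnpf, Hnrnph2 and Hnrnpm, and in 7.15% of all promoters. A match describes the letters in the window and not binding.

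No member passed the adjusted threshold, and most members differed little between the groups. Of the 31 members, 30 had the 100 counts over the 9 libraries that were required for the test, and 0 of 30 had an adjusted p under 0.05 among the 14105 genes of the edgeR fit (1.10% of all genes did, 0.305% higher and 0.794% lower). The lowest adjusted p was 0.278. At an unadjusted p under 0.05, 2 of 30 members passed (16.1% of all genes), both of them higher, which is 6.67% of members against 6.10% of all genes and near the background. The DESeq2 Wald test gave 0 members with an adjusted p under 0.05 (8.49% of all genes) and 2 with an unadjusted one (19.3% of all genes), again Srsf1 and Hnrnpl. With limma-voom these were 0 (0.617% of all genes) and 2 (15.5% of all genes), the latter Hnrnpa0 and Hnrnpl. With a more than 2-fold change required beside an unadjusted p under 0.05 of edgeR, 0 of 30 members passed (13.4% of all genes). The study's methods give the same thresholds, but with DESeq2. No member had its 3 KPYYF libraries all above (3.92% of all genes) or all below (5.18% of all genes) the KPF libraries. Srsf12 was not tested, because it had 1 count in KPYYF library 4891 and none elsewhere, under the floor of 3 counts or 0.311 to 0.370 CPM per library.

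The differences were bounded by narrow intervals for many members. The 95% interval of the fold change lay within 2-fold either way for 18 of 30 members, against 12.1% of all genes tested and 18.6% of the 9188 tested genes with a mean of at least 10 CPM. The log2 fold change itself was within 1 either way for 29 of 30 members, against 67.1% of all genes and 78.7% of genes with a mean of at least 10 CPM. Across all 9 libraries, the highest CPM was less than 2 times the lowest for 12 of 30 members, against 4.24% of all genes and 6.50% of genes with a mean of at least 10 CPM. The median standard error of a log2 fold change was 0.29 for members, 0.63 for all genes and 0.45 for genes with a mean of at least 10 CPM. The median SD of log2 CPM among the 6 KPF libraries was 0.32, 0.78 and 0.58 in the same order. The log2 fold changes of the members ran from -1.09 to 0.65 with a median of 0.18, and 22 were above 0 (46.7% of all genes) and 8 below. Over all genes the median was -0.07, and it was -0.02 over those with a mean of at least 10 CPM.

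**Figure D1:**
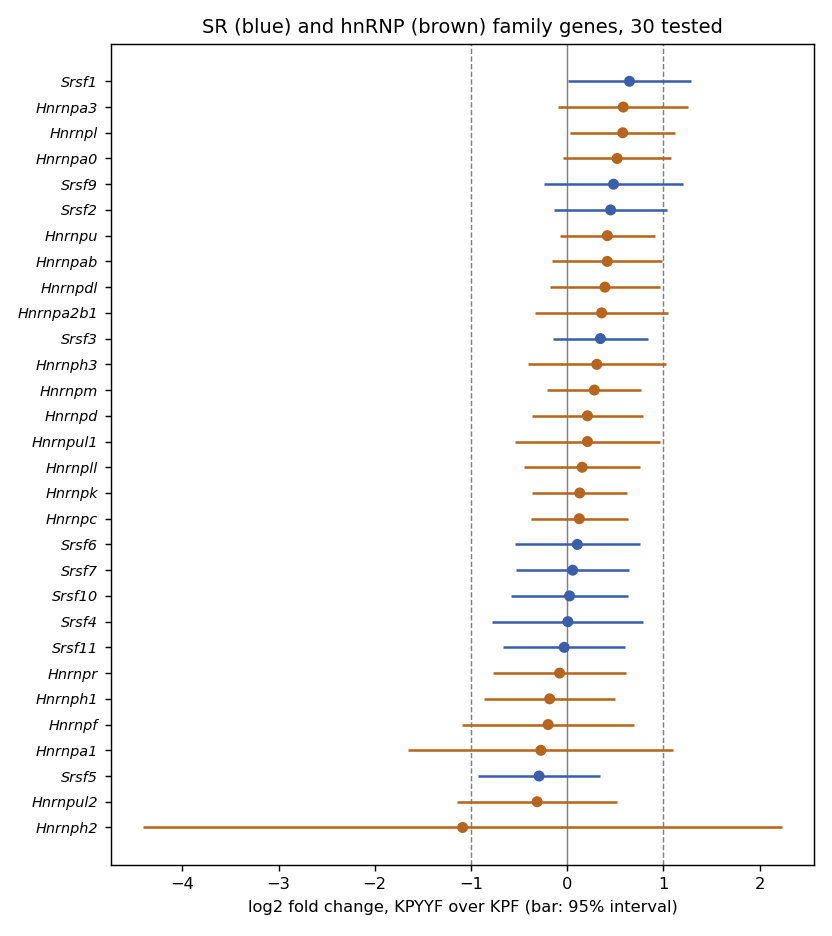
Log2 fold change of KPYYF over KPF for the 30 members tested (points, x axis) with its 95% interval (bars), ordered by size, with SR genes in blue, hnRNP genes in brown and dashed lines at 2-fold either way. The intervals of 18 members lie between the dashed lines, those of Srsf1 and Hnrnpl exclude 0, and that of Hnrnph2 is the widest.

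The 8 canonical SR proteins tested had a median log2 fold change of 0.23, with 7 above 0. Srsf1, which binds purine-rich exonic enhancers and is known as a proto-oncogene, was at 101 CPM in the lowest, 167 CPM in the median and 213 CPM in the highest KPF library. Its KPYYF libraries were at 321 CPM (4449), 157 CPM (4891) and 284 CPM (4938). Libraries 4449 and 4938 were therefore above every KPF library and 4891 was among them. The log2 fold change was 0.65 (SE 0.29, 95% interval 0.01 to 1.28, unadjusted p = 0.0460, adjusted p = 0.297 by edgeR, Benjamini-Hochberg), and the two-sided exact permutation p was 0.0714, where the smallest that 6 against 3 libraries allow is 0.0119. With the 2 libraries of mouse 4504 summed, the unadjusted p of edgeR was 0.0594, and it was under 0.05 in 10 of 19 alternatives (range 0.0112 to 0.203), but not without KPF library 4435, 4504h, 4504s or 4515 or KPYYF library 4449 or 4938.

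The other canonical SR genes differed in which KPYYF library was high. They were described after their values were seen. Srsf3, the smallest SR protein and an adaptor of mRNA export, was at 262 to 375 CPM in KPF libraries (median 316) and at 435, 420 and 356 CPM in KPYYF libraries 4449, 4891 and 4938, so that the last lay within the KPF range. Its log2 fold change was 0.35 (SE 0.23, adjusted p = 0.506 by edgeR's quasi-likelihood test), with an unadjusted exact permutation p of 0.0357. Srsf2, also called SC35 and a marker of nuclear speckles, was at 195 to 380 CPM in KPF (median 253) and at 447, 310 and 330 CPM in KPYYF libraries in the same order. Only library 4449 exceeded the KPF range. Srsf9, an SR protein with a short arginine and serine domain, was at 77.5 to 154 CPM in KPF (median 134) and at 94.4, 166 and 276 CPM in KPYYF libraries, with 4449 here below the KPF median and 4938 far above the others. The log2 fold changes were 0.45 (SE 0.27) for Srsf2 and 0.48 (SE 0.33) for Srsf9, and the latter was 0.03 without KPYYF library 4938 and 0.79 without 4449.

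Srsf5, also called SRp40 and a promoter of exon inclusion, had the lowest SR value. Its KPF libraries were at 245 to 424 CPM (median 269) and its KPYYF libraries at 320, 252 and 151 CPM for 4449, 4891 and 4938. Library 4938 was below every KPF library and the other two lay within their range. The log2 fold change was -0.29 (SE 0.29). Srsf6, also called SRp55, spread to both sides, with KPYYF library 4449 at 235 CPM above and 4891 at 95.6 CPM below all KPF libraries (125 to 207 CPM), 4938 at 180 CPM, and a log2 fold change of 0.11 (SE 0.30). Srsf7, an SR protein with a zinc knuckle, had 0.06 (SE 0.27), and Srsf4, a large SR protein, 0.01 (SE 0.36). Their KPYYF libraries stayed within 113 to 125 CPM and 24.6 to 26.4 CPM, inside the KPF ranges of 88.5 to 150 CPM and 16.5 to 30.4 CPM. Of the less typical family genes, Srsf10, a repressor when dephosphorylated, had a log2 fold change of 0.02 (SE 0.28), and Srsf11 had -0.03 (SE 0.29).

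**Figure D2:**
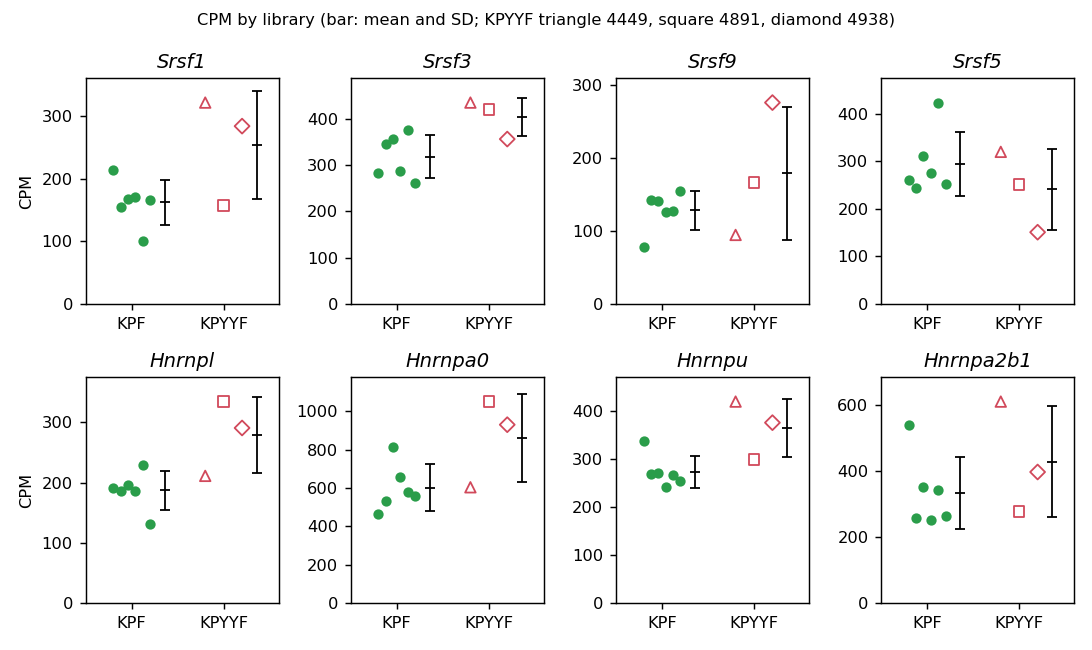
CPM (y axis from 0, scale set per gene) of 4 SR genes (top) and 4 hnRNP genes (bottom) in each KPF library (green points) and each KPYYF library (red, with a triangle for 4449, a square for 4891 and a diamond for 4938), with the mean and SD of each group as a black bar. In each of the 8 genes at least 1 KPYYF library lies inside the KPF range, and the library that lies outside differs between genes.

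Among hnRNP genes, those of the A/B and D classes had the highest median of log2 fold changes, 0.39 over 7 genes with 6 above 0. Hnrnpa0, which binds AU-rich elements of inflammatory transcripts, was at 465 to 813 CPM in KPF libraries (median 568) and at 603, 1050.2 and 929.7 CPM in KPYYF libraries 4449, 4891 and 4938. The last of these libraries and 4891 exceeded all KPF libraries. Its log2 fold change was 0.52 (SE 0.26, unadjusted p = 0.0655, adjusted p = 0.351 by edgeR's quasi-likelihood test). Hnrnpa3, a protein close to hnRNP A2/B1, was at 46.4 to 81.3 CPM in KPF (median 54.8) and at 97.5, 54.8 and 108 CPM in KPYYF libraries, and Hnrnpab, which also binds DNA, at 348 to 522 CPM (median 408) and 620, 361 and 694 CPM. In both genes 4449 and 4938 were above the KPF range and 4891 was not. The log2 fold changes were 0.58 (SE 0.31) and 0.42 (SE 0.27).

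Hnrnpa2b1, which sorts microRNAs and binds m6A-marked transcripts, was at 251 to 539 CPM in KPF (median 302) and at 611, 277 and 397 CPM in KPYYF libraries 4449, 4891 and 4938, so that 2 of the 3 lay inside a wide KPF range set by library 4269. Hnrnpdl, a paralog of Hnrnpd, was at 237 to 429 CPM (median 336) and at 397, 566 and 335 CPM, with 4891 as the high library. Their log2 fold changes were 0.36 (SE 0.32) and 0.39 (SE 0.27), and that of Hnrnpa2b1 was 0.01 without KPYYF library 4449. Hnrnpd, also called AUF1 and a factor of AU-rich transcript decay, had 0.21 (SE 0.27). Hnrnpa1, the repressor of the adult Pkm exon, had -0.27 (SE 0.64), with 5.83 to 25.3 CPM in KPF and 12.2, 7.00 and 10.3 CPM in KPYYF libraries, all within the KPF range.

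Hnrnpl, which binds CA repeats and acts as enhancer or repressor by position, was at 131 CPM in the lowest, 189 CPM in the median and 229 CPM in the highest KPF library. Its KPYYF libraries were at 211 CPM (4449), 335 CPM (4891) and 291 CPM (4938). Libraries 4891 and 4938 were above every KPF library, while 4449, one of the high libraries for Srsf1, was within the KPF range. The log2 fold change was 0.58 (SE 0.25, 95% interval 0.03 to 1.13, unadjusted p = 0.0404, adjusted p = 0.278 by edgeR, Benjamini-Hochberg), and the exact permutation p was 0.0238. The unadjusted p of edgeR rose to 0.0543 with the 2 libraries of mouse 4504 summed and was under 0.05 in 10 of 19 alternatives (range 0.0174 to 0.172), but not when KPF library 4435, 4504h, 4504s or 4601 or KPYYF library 4891 or 4938 was left out. Its paralog Hnrnpll, known for the switch of Ptprc exons in T cells, had a log2 fold change of 0.16 (SE 0.28), with KPYYF libraries at 59.7 to 61.9 CPM within a KPF range of 44.9 to 67.0 CPM.

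The remaining genes of the C, K, L, M and R classes were close to 0. Hnrnpk, a poly(C)-binding protein, had a log2 fold change of 0.13 (SE 0.23), and Hnrnpc, which binds uridine tracts, had 0.13 (SE 0.23). Hnrnpm, known for its part in splicing during epithelial to mesenchymal transition, was at 290 to 429 CPM in KPF (median 365) and at 417, 400 and 503 CPM in KPYYF libraries, above the KPF median in all 3 and above the KPF range in 4938 alone. Its log2 fold change was 0.28 (SE 0.23). Hnrnpr, a factor of axonal transcripts, had -0.08 (SE 0.32).

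The F/H genes, which bind runs of guanines, had a median of -0.19, with 1 of 4 above 0. Hnrnph1 was at 73.9 to 107 CPM in KPF (median 85.1) and at 111, 45.5 and 73.9 CPM in KPYYF libraries 4449, 4891 and 4938. Library 4449 was above and the other two below all KPF libraries, by a small margin for 4938, and the log2 fold change was -0.18 (SE 0.31). Hnrnph2, the lowest member, had 0 counts in KPF library 4504h and in KPYYF library 4449, was at 4.93 CPM in the median and 7.68 CPM in the highest KPF library, and at 4.16 and 2.41 CPM in 4891 and 4938. Its groups overlapped, and the log2 fold change of -1.09 had an SE of 1.54. The 95% interval ran from -4.41 to 2.24, so a difference was not detectable from these counts. Hnrnph3 had 0.31 (SE 0.33) and Hnrnpf -0.20 (SE 0.42).

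Of the U class, Hnrnpu, also called SAF-A and a scaffold protein of the nucleus, was at 242 to 338 CPM in KPF (median 268) and at 421, 299 and 377 CPM in KPYYF libraries 4449, 4891 and 4938. All 3 were above the KPF median, and 4891 was below the highest KPF library, 4269. The log2 fold change was 0.42 (SE 0.23, adjusted p = 0.402 by edgeR's quasi-likelihood test), with an unadjusted exact permutation p of 0.0238. Its relatives Hnrnpul1 and Hnrnpul2, which take part in the response to DNA breaks, had 0.21 (SE 0.35) and -0.31 (SE 0.38). Over all members, 3 of 30 had an unadjusted exact permutation p under 0.05, namely Hnrnpl, Hnrnpu and Srsf3, against 15.3% of all genes.

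**Figure D3:**
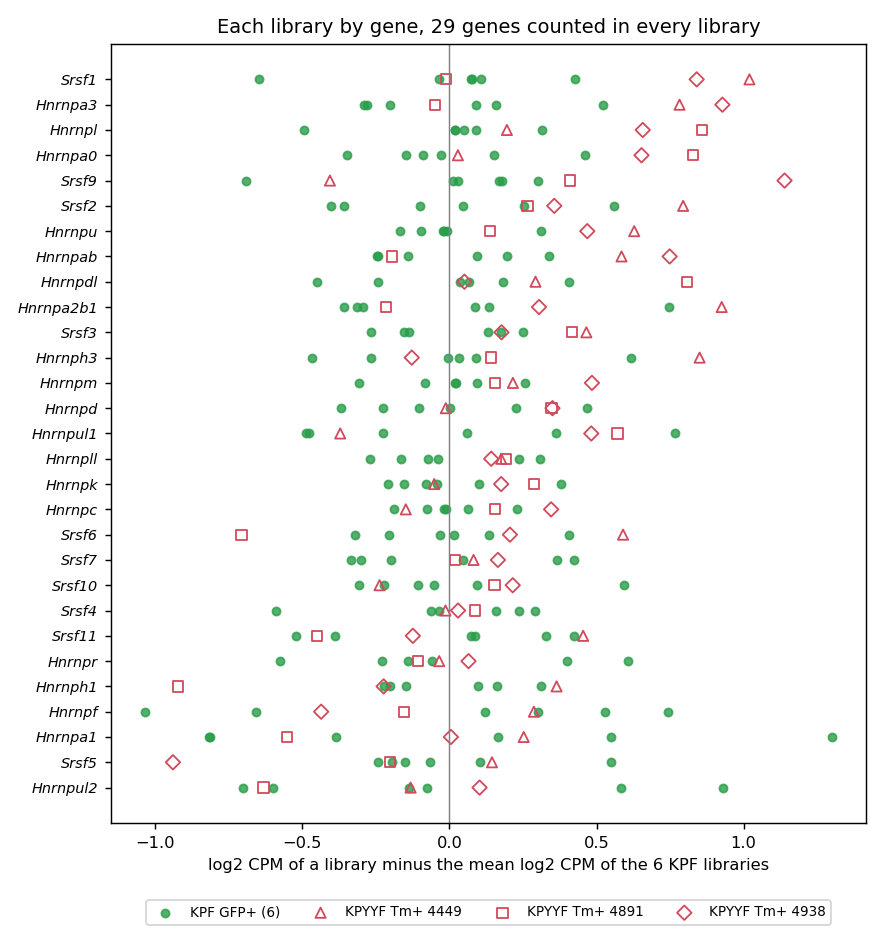
Log2 CPM of each library minus the mean log2 CPM of the 6 KPF libraries (x axis) for the 29 members counted in every library (y axis), with KPF libraries in green and KPYYF libraries in red. KPYYF library 4449 (triangles) is above the KPF libraries in 11 members and 4891 (squares) in 5, and no gene has all 3 red marks outside the green ones on 1 side. The shares of all genes for single libraries are not given.

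The KPYYF libraries differed in which members lay outside the KPF range. Over all genes tested, the Pearson r of log2 CPM was 0.735 for 4449 with 4891, 0.758 for 4449 with 4938 and 0.842 for 4891 with 4938. Whether the difference is particular to the members was not tested. Library 4449 was above all KPF libraries in 11 of 30 members, 4891 in 5 and 4938 in 9, and they were below all KPF libraries in 0, 2 and 2. The shares of all genes outside the KPF range in each single library are not given here, so these counts are descriptions only. At least 2 of the 3 KPYYF libraries exceeded all KPF libraries in 8 of 30 members, against 14.6% of all genes and 16.6% of those with a mean of at least 10 CPM. These were Srsf1, Hnrnpa3, Hnrnpab and Hnrnpu in 4449 and 4938, Hnrnpa0, Hnrnpl and Srsf9 in 4891 and 4938, and Srsf3 in 4449 and 4891. In 13 members no KPYYF library was above the KPF range. All 3 KPYYF libraries were above the KPF median in 10 members, 2 of them in 13, 1 in 6 and none in 1. For these counts, and for the 13 members with no library above the range, the shares of all genes are not given either. They are descriptions only. KPF libraries varied as well, since 4269 was the highest KPF library for 13 of 30 members and the lowest for 5, again without the shares of all genes.

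Summed over the 20 genes with Hnrnp symbols, the level was higher in KPYYF libraries. The sum was 3517 to 4351 CPM in KPF libraries (mean 3965 ± 290, SD, n = 6) and 4763, 4848 and 5175 CPM in KPYYF libraries 4449, 4891 and 4938 (mean 4929 ± 218, SD, n = 3), without overlap and 1.24 times as high. The 8 hnRNP proteins with other symbols, described below, overlapped in their sum, at 1312 to 2443 CPM in KPF and 1601 to 2479 CPM in KPYYF libraries. The SR sum was 1865 to 2165 CPM in KPF libraries (mean 1994 ± 118, SD, n = 6) and 2649, 1954 and 2222 CPM in KPYYF libraries (mean 2275 ± 351, SD, n = 3), where 4891 lay within the KPF range. All members together took 0.479 to 0.673% of gene counts in KPF and 0.716 to 0.774% in KPYYF libraries, also without overlap. These sums are descriptions, weighted toward the members with the most counts, and in bulk samples fewer cells of a type and less RNA per cell cannot be told apart.

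**Figure D4:**
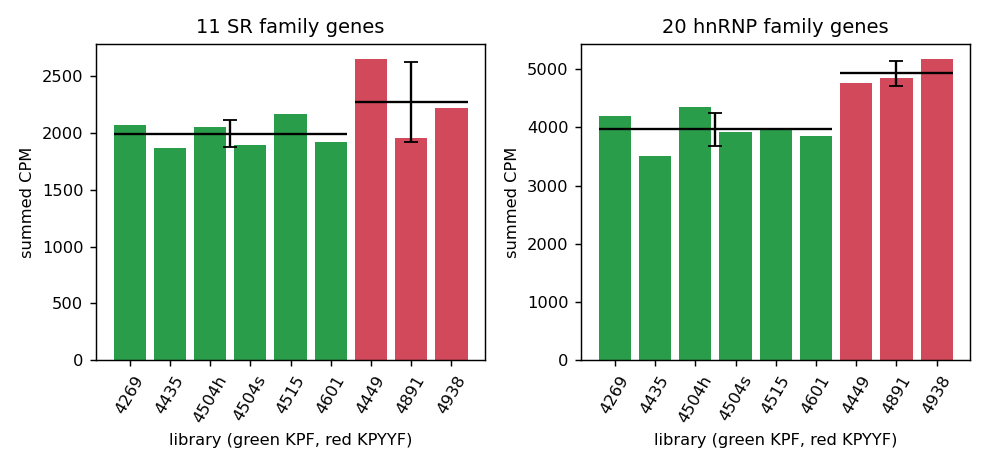
Summed CPM (y axis from 0) of the 11 SR genes (left) and the 20 hnRNP genes (right) in each KPF (green) and KPYYF (red) library, with the mean (line) and SD (bar) of each group. The 3 KPYYF libraries are all above the KPF libraries for hnRNP genes, and 4891 is not for SR genes.

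Proteins that work with these families gave a mixed picture. Of 8 tested hnRNP proteins with other symbols, 4 were above and 4 below 0, the median log2 fold change was 0.04 and 0 had an adjusted p under 0.05 in edgeR's quasi-likelihood test, with 0 at an unadjusted p under 0.05 (16.1% of all genes). They ran from Pcbp2, a poly(C)-binding protein, at -0.27 (SE 0.25) to Syncrip, also called hnRNP Q, at 0.46 (SE 0.28). Of 22 tested SR-related proteins and SR kinases, 10 were above and 12 below 0, with a median of -0.05, 0 with an adjusted p under 0.05 and 1 with an unadjusted one in the same test, a lower share than the 16.1% of all genes. That gene was Srpk2, a kinase that phosphorylates SR proteins, at 49.9 to 130 CPM in KPF (median 81.2) and 124, 145 and 138 CPM in KPYYF libraries 4449, 4891 and 4938, with 4449 inside the KPF range and a log2 fold change of 0.70 (SE 0.30, adjusted p = 0.262 by edgeR). Clk3, a nuclear kinase of SR proteins, had the lowest value, -0.67 (SE 0.36), and Rnps1, of the exon junction complex, the highest, 0.75 with a 95% interval that includes 0 and near-0 levels in KPF libraries 4269 and 4601 and KPYYF library 4449.

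Core spliceosome genes had the highest median of the 4 other splicing lists, 0.37 over 39 genes, with 32 above 0 and 7 below. None had an adjusted p under 0.05 (1.10% of all genes) in edgeR's quasi-likelihood test, and 7 of 39 had an unadjusted p under 0.05, all higher, against 6.10% of all genes. They were Snrpd1, Snrpd2 and Snrpd3 of the Sm ring, Sf3a1 and Sf3a3 of the U2 particle, Lsm2, and U2af1, which reads the 3′ splice site. In Snrpd2, Sf3a1 and U2af1, all 3 KPYYF libraries were above all KPF libraries, against 3.92% of all genes. U2af1, the highest, was at 9.22 to 25.6 CPM in KPF (median 15.4) and 33.5, 28.4 and 30.03 CPM in KPYYF libraries, with a log2 fold change of 0.93 (SE 0.43, adjusted p = 0.305 by edgeR). Lsm5 was the lowest at -0.60 (SE 1.10). The summed level of the list was 3428 to 4073 CPM in KPF and 4376 to 4944 CPM in KPYYF libraries, without overlap.

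Other regulators of alternative splicing spread more widely than the SR and hnRNP genes. Of 18 tested, 7 were above and 11 below 0, with a median log2 fold change of -0.41. Some genes far from 0 had low counts, such as Nova1 at -3.49 (SE 2.14) with a KPF median of 0.966 CPM. Others did not, such as Rbm47 at -2.11 (SE 0.60) with a KPF median of 121 CPM. All genes tested ran from -9.64 to 9.38. At an unadjusted p under 0.05 in edgeR's quasi-likelihood test, 2 of 18 were higher and 4 of 18 lower, against 16.1% of all genes in either direction, and all KPYYF libraries were above all KPF libraries in 1 gene and below them in 3, against 3.92% and 5.18% of all genes. Celf2, an RNA-binding protein of the CELF family, was the 1 gene of all the splicing lists that passed the adjusted threshold, 1 of 18 in its list, where 1.10% of all genes passed and 0.794% were lower. It was at 98.7 to 286 CPM in KPF libraries (median 204) and at 53.1, 70.0 and 36.3 CPM in KPYYF libraries 4449, 4891 and 4938, each below all KPF libraries. It fell by 1.92 on the log2 scale (SE 0.40, adjusted p = 0.0390 by edgeR, Benjamini-Hochberg), but over the alternatives its adjusted p ran from 0.000160 to 0.152. It exceeded 0.05 when any library other than KPF library 4515 was left out, with a log2 fold change between -2.17 and -1.71 in those fits.

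Esrp2 and Mbnl3 marked the ends of the list. Esrp2, an epithelial splicing regulator, was lowest, at 8.31 to 34.4 CPM in KPF (median 14.5) and 3.09, 0.437 and 0.658 CPM in KPYYF libraries, without overlap, with a log2 fold change of -3.62 (SE 0.87, adjusted p = 0.0643 by edgeR). Mbnl3, a muscleblind protein, was highest, at 0 to 8.60 CPM in KPF (median 4.29) and 36.8, 13.6 and 18.4 CPM in KPYYF libraries, also without overlap, with 2.57 (SE 0.98, adjusted p = 0.212 by edgeR). The epithelial markers Cdh1 and Krt18 moved with Esrp2, at log2 fold changes of -2.92 and -2.49, and their part in its value was not tested.

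**Figure D5:**
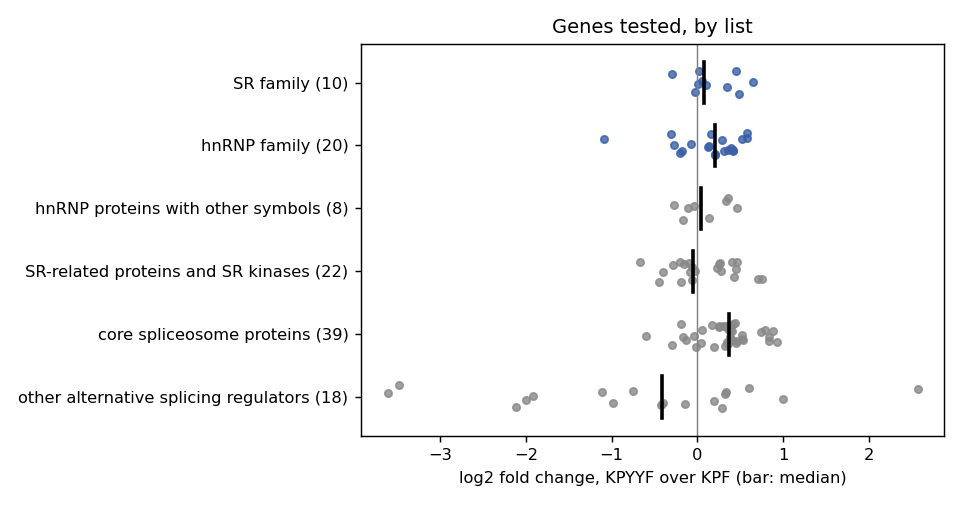
Log2 fold change of KPYYF over KPF (x axis) for each tested gene (points) of the SR and hnRNP families (blue) and of 4 other splicing lists (gray), with the median of each list as a black bar. Members lie between -1.09 and 0.65, while other alternative splicing regulators, some of them with low counts, lie between -3.62 and 2.57. All genes tested lie between -9.64 and 9.38.

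Some members share sequence with other genes at the 3′ end, where these libraries read. Of 31 members, 10 had another gene with at least 97% identity over at least 75 bases of the last 300 bases of a transcript. For Hnrnpab, Srsf2 and Srsf4, the only such gene was the gene that overlaps the member on the opposite strand, and not a copy elsewhere. For 5 of the 10 members, a pseudogene was among the genes with such identity. Hnrnpa3 had 26 such genes, 23 of them pseudogenes, and Hnrnpf had 9, of which 6 were pseudogenes. Hnrnpk had 2 pseudogene copies, and Hnrnpc and Hnrnph2 had 1 each, so the counts of these 5 members are uncertain. The search covered annotated transcripts only. Whether members without a copy found, such as Hnrnpa1, also lost reads without a unique alignment was not tested. For 6 members another gene lay over the last 500 bases. For Hnrnpab, Hnrnph3, Hnrnpu, Srsf2 and Srsf4 it was on the opposite strand, which matters only if the counting did not use strand. For Hnrnpul2 it was on the same strand, which can affect its counts at any strand setting if the annotation used held that gene. Srsf1 and Hnrnpl had neither a copy nor an overlapping gene.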

How the data were processed

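RNA was measured in 9 libraries of FACS-sorted PDAC cells, 6 from KPF and 3 from KPYYF mice. As deposited by the authors, each file holds raw counts per Ensembl gene without normalization. The submitters' processing notes name STAR, HTSeq and mm10, without versions or an annotation release, and the strand setting is not given in the sources used here. The methods section describes BeadChip hybridization, but the values are whole-number counts with a different total in each library.

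Of 47643 genes, 47224 were matched by identifier to GENCODE release M21. Genes summing to 100 counts or more were compared with edgeR 4.0.16's quasi-likelihood test (TMM, robust, no covariates) in R 4.3.3. P values were adjusted by the Benjamini-Hochberg method across the 14105 genes tested (threshold 0.05), and all tests are two-sided. The SE was derived from the log2 fold change and its F statistic. CPM values are scaled by TMM, and log2 CPM of single libraries, used in the exact permutation tests, has a prior count of 2. Sums and ranges of CPM are descriptions without a test. Alternatives were the DESeq2 1.42.0 Wald test, limma 3.58.1 voom with sample quality weights, other normalizations and filters, libraries 4504h and 4504s summed, libraries with at least 1000 Xist counts, and each library left out. The scripts were tested on simulated counts. Copies of 3′ ends were searched with BLAST 2.17.0.

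Part of the genotype that both groups share is not reported here. The members and lists were chosen with earlier results of these data known. Every member is named. Values in every library or group are given for members with an unadjusted p under 0.05 and for the highest and lowest log2 fold change, and of other lists for genes with an adjusted p under 0.05 and the extremes. Values of the other members in single libraries were chosen after they were seen. The same holds for Srpk2, Esrp1, Nova1, Rbm47, Cdh1, Krt18 and the core spliceosome genes other than the extremes.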

Additional observations from a re-analysis of the deposited data

Results flagged for a closer look

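In 4 of the 30 members tested, 1 KPF library stood apart from the other 5, with a gap to its neighbor, divided by the range of the 6 log2 CPM values, above 0.625, and chance flags about 1 in 20 groups. Hnrnph2 had 0 CPM in library 4504h (gap over range 0.831), and Hnrnpl was at 131 CPM in library 4601 (gap over range 0.633). Library 4269 was apart for 2 genes, as the highest for Hnrnpu at 338 CPM (gap over range 0.670) and as the lowest for Srsf9 at 77.5 CPM (gap over range 0.708).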

How the results depend on the processing

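No member had an adjusted p under 0.05 in the main analysis or in any of the 19 alternatives. The median log2 fold change of members was 0.11 to 0.28 over them, and it exceeded that of all genes by 0.19 to 0.50. The ratio of summed hnRNP CPM was 1.21 to 1.33, with each KPYYF library above each KPF library in every setting in which it was computed, a value added after seeing the data. Members without overlap between the groups numbered 1 with upper quartile normalization, 2 with library totals only and 6 among libraries with at least 1000 Xist counts, where 3 KPF libraries remained, and 0 to 4 when 1 library was left out, with 4 without KPYYF library 4449 or 4891. Groups of fewer libraries separate more easily by chance, and the shares of all genes in these settings are not given here. The rise in these counts is therefore not a result about the members. Members higher at an unadjusted p under 0.05 numbered 1 without a filter on low counts (Srsf1), 1 with libraries 4504h and 4504s summed (Hnrnpa0, with neither Srsf1 nor Hnrnpl passing), 0 among libraries with at least 1000 Xist counts, and 0 to 3 when 1 library was left out, with 0 when the one left out was KPF 4435, KPF 4504s or KPYYF 4938. The count of members with an interval within 2-fold, also added after seeing the data, was 11 among libraries with at least 1000 Xist counts and 14 to 18 when 1 library was left out. The shares of all genes for the unadjusted and interval counts in these settings are not given here. Other alternative splicing regulators with an adjusted p under 0.05 numbered 3 with the DESeq2 Wald test, where 1197 of 14105 genes passed (8.49%). They numbered 2 without a filter, where 307 of 22925 genes passed. The count was 0 with library totals only (144 genes passing), with libraries 4504h and 4504s summed (111) and among libraries with at least 1000 Xist counts (37). It was 0 to 3 when 1 library was left out, where 23 to 273 genes passed.

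Some members near 0 changed sign. The log2 fold change of Hnrnpr was 0.0311 with limma-voom, 0.022 with library totals only and 0.230 among libraries with at least 1000 Xist counts, that of Srsf11 was 0.0718 and 0.271 in the latter 2, that of Hnrnpa1 was 0.0474 among libraries with at least 1000 Xist counts, that of Srsf4 was -0.0057 with a mean of at least 10 CPM, and that of Srsf10 was -0.0255 with libraries 4504h and 4504s summed. When 1 library was left out, it ran from -0.460 to 0.0940 for Hnrnpa1, -0.546 to 0.0866 for Hnrnph1, -0.0282 to 0.499 for Hnrnph3, -0.178 to 0.0628 for Hnrnpr, -0.0601 to 0.169 for Srsf10, -0.318 to 0.154 for Srsf11, -0.0900 to 0.0814 for Srsf4, -0.199 to 0.392 for Srsf6 and -0.00701 to 0.178 for Srsf7. Without a change of sign, Srsf9 ran from 0.0269 to 0.787 and Hnrnpa2b1 from 0.0124 to 0.593. The cause of these changes was not tested. No paired analysis was possible because the groups share no mouse number and the labels give no replicate number. The number of KPYYF libraries, 3, and the spread between libraries limit what can be called.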
